A study of Mus musculus with 12 samples.

Results

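Follicular-open regions are stretches of chromatin that carried more ATAC-seq signal in wild-type follicular B cells (FoB) than in wild-type marginal zone B cells (MZB). A region was taken when its mean over the 3 wild-type FoB libraries was at least 5 rppm and at least 2.5 times its mean over the 3 wild-type MZB libraries. The unit rppm gives the reads in a region after each library was scaled to the same total over all listed regions. The rule found 389 of 94161 regions, out of 36867 whose wild-type FoB mean reached 5 rppm. Turned round, with the cell types exchanged, it found 5115 regions more open in MZB. With the TMM scaling of edgeR the same rule found 663 and 3930. The regions were thus chosen by the levels of the 6 wild-type libraries, and the higher FoB signal in those libraries is no finding.

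ATAC-seq marks open chromatin through the places where the Tn5 transposase inserts adapters. The study asked how the histone demethylase LSD1, the product of Kdm1a, bears on chromatin accessibility in splenic B cells. Each library held 10000 unstimulated B cells sorted from the spleen of female C57BL/6J mice. The 4 groups were MZB labelled wild-type, MZB labelled knockout, FoB labelled wild-type and FoB labelled knockout, with 3 libraries each. MZB were gated as CD23- CD21hi CD1d+ and FoB as CD23+ CD21mid CD1d-. B220+ cells negative for GL7, CD93, CD11b, F4/80 and Thy1.1 entered both gates. The sources used here do not give the deleted part of Kdm1a, the Cre line and the cells it acts in, or the ages of the mice. Nothing states that the libraries of a group came from separate animals, so p-values measure only the spread between these libraries.

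Follicular B cells recirculate through blood and lymphoid follicles and give rise to germinal centres with T cell help. Marginal zone B cells stay at the border of the splenic white pulp, depend on Notch signalling, and respond early to blood-borne antigens. Regions that differ in openness between related cell types are often distal enhancers, whereas promoters tend to be open in both. LSD1 removes methyl groups from histone H3 at enhancers and promoters.

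Only 9 of the 389 regions contained a listed start site of a gene. Of the promoters at those sites, the 5 with the highest wild-type FoB signal are printed together with that of Iftap, whose start lies in a region inside Rag2 that returns below. Sequences come from RefSeq (GRCm38.p6, the same assembly as mm10), and each runs 5′ to 3′ over the 250 bases before the start. Capitals mark matches to the motif letters given after them. The windows are chr10:127666704-127666953 on the minus strand for Nab2, chr10:127666873-127667122 on the plus strand for 1700012D01Rik, and chr13:12106946-12107195 on the minus strand for Ryr2. They are chr11:95587699-95587948 for Ngfr, chr3:88493313-88493562 for Lmna and chr2:101629032-101629281 for Iftap, all on the minus strand. The Lmna window runs past the end of its region at 88493409, and the Iftap window past the end of its region at 101629193.
Nab2: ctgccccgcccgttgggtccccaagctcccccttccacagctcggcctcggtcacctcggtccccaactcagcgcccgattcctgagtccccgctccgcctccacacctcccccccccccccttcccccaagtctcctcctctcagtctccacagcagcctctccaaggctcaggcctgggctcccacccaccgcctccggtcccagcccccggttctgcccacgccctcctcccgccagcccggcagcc
1700012D01Rik: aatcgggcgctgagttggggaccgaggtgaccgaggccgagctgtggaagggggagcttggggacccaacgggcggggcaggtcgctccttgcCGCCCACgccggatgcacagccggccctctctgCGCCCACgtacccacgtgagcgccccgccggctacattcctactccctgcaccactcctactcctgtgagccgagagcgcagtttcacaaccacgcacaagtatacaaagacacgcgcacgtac
Ryr2: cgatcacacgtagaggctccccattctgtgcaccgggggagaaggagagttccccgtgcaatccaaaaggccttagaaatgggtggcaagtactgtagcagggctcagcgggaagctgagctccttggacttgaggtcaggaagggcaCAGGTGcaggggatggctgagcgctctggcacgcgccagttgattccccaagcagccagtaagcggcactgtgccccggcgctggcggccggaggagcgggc
Ngfr: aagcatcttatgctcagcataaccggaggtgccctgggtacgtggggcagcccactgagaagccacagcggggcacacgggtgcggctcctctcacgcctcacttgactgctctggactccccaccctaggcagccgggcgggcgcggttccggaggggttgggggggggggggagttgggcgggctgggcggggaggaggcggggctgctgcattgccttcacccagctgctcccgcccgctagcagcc
Lmna: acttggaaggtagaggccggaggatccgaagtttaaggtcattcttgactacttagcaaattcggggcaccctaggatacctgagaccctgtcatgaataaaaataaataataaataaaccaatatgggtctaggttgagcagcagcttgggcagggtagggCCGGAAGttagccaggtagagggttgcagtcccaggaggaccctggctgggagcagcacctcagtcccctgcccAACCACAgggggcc
Iftap: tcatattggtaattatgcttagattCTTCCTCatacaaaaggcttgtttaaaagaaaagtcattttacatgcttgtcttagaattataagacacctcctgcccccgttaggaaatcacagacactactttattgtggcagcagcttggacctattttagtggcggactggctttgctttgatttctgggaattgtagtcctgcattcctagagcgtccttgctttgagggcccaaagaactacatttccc

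Nab2 encodes a co-repressor of Egr transcription factors, and the long noncoding gene 1700012D01Rik starts in the same region on the opposite strand. Ryr2 encodes a calcium release channel, Ngfr a neurotrophin receptor, and Lmna the A-type lamins of the nuclear envelope. The 1700012D01Rik window held 2 matches to the Egr letters GTGGGCG, which occur in 7.02% of the 32851 listed promoters, counting both strands. Ryr2 held an E-box CAGGTG (17.2% of promoters), and Lmna an ETS match CCGGAAG (6.91%) and a RUNX match TGTGGTT (4.4%). A PU.1 match GAGGAAG (10.6%) lay in the Iftap window. The Nab2 and Ngfr windows held none of the 16 motifs searched.

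The other letters searched were CACACCC for KLF (6.93% of promoters), GTAAACA for forkhead (3.17%), TTCAAAG for Tcf and Lef (4.46%) and TGANTCA for AP-1 (6.75%). They were also TTTGCAT for the octamer (4.12%), TTTTCCA for NFAT (5.93%) and GTGGGAA for RBPJ (5.42%), and the longer motifs of NF-kB (1.21%), IRF (2.98%), MEF2 (3.2%) and EBF (0.779%). The ETS and PU.1 letters share the run GGAAG. Such matches describe the letters only.

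Levels at the regions around these starts differed widely. At the Nab2 region (chromosome 10, 127666485 to 127667653) the wild-type MZB libraries read 18.9, 20.5 and 17.4 rppm, the knockout MZB libraries 31, 22.1 and 26, the wild-type FoB libraries 52.3, 48.6 and 44.9, and the knockout FoB libraries 51.1, 39.8 and 50.1. All FoB libraries lay above all MZB libraries, and the knockout MZB libraries lay above the wild-type ones. At the Ryr2 region (chromosome 13, 12105870 to 12107223) the knockout MZB libraries read 7.23, 4.73 and 7.98 rppm, below the wild-type 9.72, 10.1 and 10.3, while the knockout FoB libraries read 22.1, 21.6 and 29.5. The Lmna region (chromosome 3, 88492842 to 88493409) was at 7.16 ± 0.915 rppm in knockout MZB and 21 ± 1.24 rppm in knockout FoB (SD, n = 3 libraries here and throughout).

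Library depth over the listed regions ran from 3169966 to 10375328 reads, and 3 reads correspond to between 0.2891 and 0.9464 rppm. Such floors cover counting error only, as no molecular identifiers are named in the labels. The one region assigned to Kdm1a (chromosome 4, 136601890 to 136603082) overlapped between the labels in MZB, at 24, 28.4 and 16.5 rppm in wild-type and 18.9, 29.7 and 26.6 in knockout. In FoB it read 24.9, 21.2 and 22.2 with the wild-type label and 20.5, 20.6 and 20.6 with the knockout label, and its accessibility does not check the deletion. The cell type labels were checked at genes whose regions did not enter the choice. Summed over all regions of the follicular markers Fcer2a (CD23), Klf2 and Ccr7, libraries read 276.8 to 284.7 rppm in wild-type MZB and 427.4 to 445.7 rppm in wild-type FoB. The list also held Cr2, which encodes CD21, an antigen gated higher in MZB. It was left out of this sum after its values were seen, and with it the ranges were 569.7 to 580.0 and 755.6 to 811.5 rppm. Over the marginal zone markers Cd1d1, Cd9, S1pr3, Dtx1 and Myof they read 1012 to 1081 and 593.5 to 629.1 rppm. Both lists followed the labels in the knockout libraries too, and 0 of the 389 regions were assigned to any of these 9 genes. In bulk libraries, fewer cells with an open region and a less open region in each cell cannot be told apart.

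The signal of the 389 regions was moderate in FoB and low in MZB. Over the regions, the median of the wild-type FoB means was 10.06 rppm and that of the wild-type MZB means 3.028 rppm, with a median ratio of 3.211 (quartiles 2.796 and 4.039). In knockout FoB the median was 9.593 rppm, and in knockout MZB it was 4.108 rppm, with a median ratio of 2.402 (quartiles 1.99 and 2.99). The medians of single libraries were 2.799 to 3.19 rppm in wild-type MZB, 3.965 to 4.137 in knockout MZB, 10.03 to 10.41 in wild-type FoB and 9.15 to 9.933 in knockout FoB. The 4 groups of library medians did not overlap, but the wild-type libraries chose the regions, which favours such gaps. Medians of wild-type libraries left out of the choice are given with the comparisons between the labels. For the 36867 regions open in FoB as a whole, the median was 15.16 to 15.77 rppm in knockout MZB and 14.93 to 15.15 in wild-type MZB libraries.

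**Figure D1:**
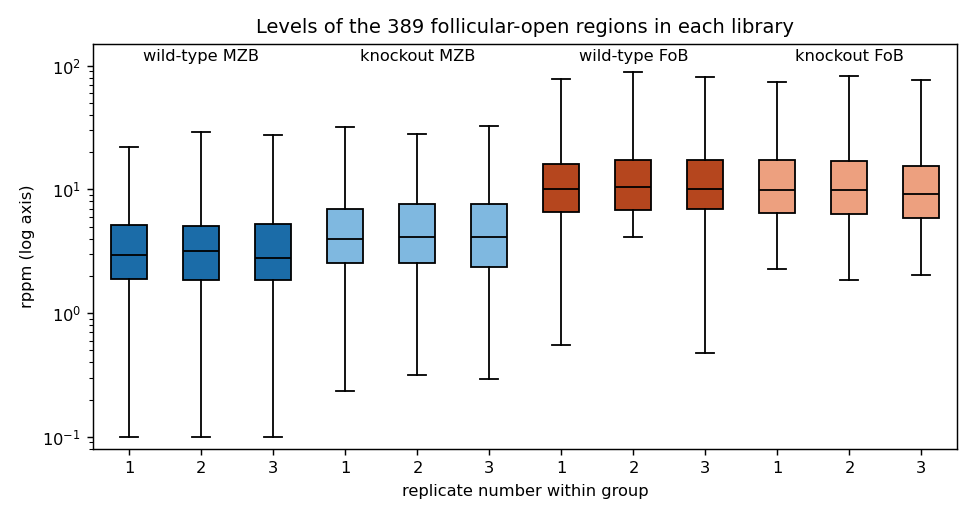
Levels of the 389 follicular-open regions in each of the 12 libraries, in rppm on a log axis. Boxes span the quartiles with the median as a line, whiskers reach the lowest and highest region, and regions at 0 are drawn at 0.1. Knockout MZB boxes sit above wild-type MZB boxes, with medians of 3.965 to 4.137 against 2.799 to 3.19 rppm, and both lie below FoB.

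In 388 of the 389 regions the 3 wild-type FoB libraries all lay above the 3 wild-type MZB libraries, as the rule makes likely. The exception was the region near Steap3, which entered through 1 library: wild-type FoB read 0.548, 15.4 and 0.477 rppm. All 389 passed the filter on low values that the tests used. Just inside the fold threshold lay regions assigned to Gm38664 (ratio 2.504), Dock10 (2.507) and Ttc37 (2.514). Just outside it lay regions of Ccdc186 (2.499), Klf3 (2.498) and Sox4 (2.497). At the level threshold the nearest members were at Ndc80 (5.007 rppm), Fmnl1 (5.06) and Prdm2 (5.066), and the nearest regions left out were at St8sia6 (4.997), Capns1 (4.976) and Esrrg (4.974). Both edges of the rule thus fell among regions with nearly the same values.

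The follicular-open regions lay away from gene starts. Of the 389, 176 (45.2%) overlapped the body of a protein-coding gene, against 66.9% of the regions open in FoB and 57.3% of all regions. A listed start site fell inside 2.31% of them, against 21.1% of the regions open in FoB, and within 1000 bp of 4.37% against 26.3%. The median distance to the nearest listed start was 40911 bp, compared with 14377 bp for the regions open in FoB. A distance above 100000 bp was found for 113 regions (29.0%), against 15.6%. All regions together stood nearer to the follicular-open ones, with 9.06% holding a start, a median of 29666 bp and 24.0% above 100000 bp. The regions open in MZB by the exchanged rule were alike in this respect, with 2.52% holding a start and a median of 43943 bp, although 59.4% of them overlapped a gene body. The list of start sites is not complete and gives none on chromosome 18, so the distances are upper limits. For the strongest region inside Wwox, the nearest listed start was that of Vat1l, 597446 bp away.

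The width of a follicular-open region was 447 bp at the median, from 128 to 1353 bp, and that of a region open in FoB was 552 bp. Every numbered chromosome held at least 6 of them. Chromosome 11 held the most, with 40 regions (10.3%, against 6.82% of the regions open in FoB), and chromosome 1 held 33 (8.48% against 7.42%). Long noncoding RNA genes overlapped 49 regions (12.6%), close to the 13.1% of the regions open in FoB. The 389 regions were assigned to 284 nearest protein-coding genes, of which 231 had 1 region and 22 had 3 or more. Assignment to the nearest gene does not show which gene a region acts on.

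Whether the cell type difference was present in cells labelled knockout was examined in those 6 libraries, which the rule had not used. It was present at nearly all of these regions. Knockout FoB exceeded knockout MZB in the mean at 388 of 389 regions, by at least 2 times at 289 and by at least 2.5 times at 173. In limma (adjusted over all 89782 tested regions, threshold 0.05), 353 regions (90.7%) were higher in knockout FoB and 0 were lower, with 0 lower at an unadjusted p under 0.05 and 0 in edgeR and DESeq2. Over all tested regions, 9.47% were higher and 23.2% were lower. The limma fit took its spread from all 12 libraries, so these calls also draw on the wild-type libraries that chose the regions. The means and the order of the libraries use the knockout libraries alone. At 353 regions (90.7%) all 3 knockout FoB libraries lay above all 3 knockout MZB libraries, against 13.3% of the tested regions. The median difference on the log2(rppm + 0.5) scale, on which changes of low regions are understated, was 1.17, from -0.18 to 3.44, and that of all tested regions was -0.14. With the TMM scaling of edgeR the median of all tested regions moved to -0.01 and that of the 389 to 1.43. Calls over the whole table were then 14682 higher and 16479 lower, instead of 8503 and 20846, and 367 of the 389 were called higher.

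**Figure D2:**
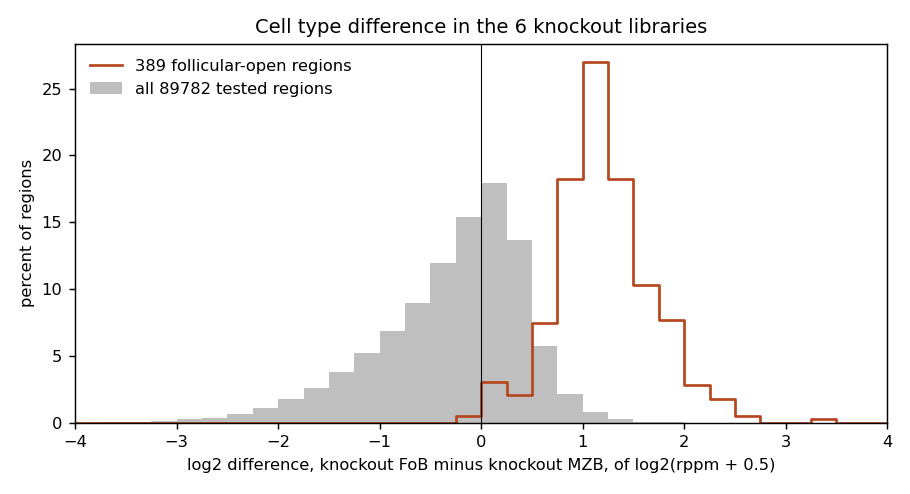
Distribution of the log2 difference between knockout FoB and knockout MZB for the 389 follicular-open regions (line) and all 89782 tested regions (filled), as percent of each set per bin. The follicular-open regions centre on 1.17 and the whole table on -0.14.

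The smallest p-values in the knockout libraries belonged to regions in Rassf3, which encodes a Ras-association domain protein, and in Gpatch2, which encodes a G-patch protein of the nucleus. In Rassf3 (chromosome 10, 121419884 to 121420596) knockout MZB read 21.5, 22.7 and 21.3 rppm and knockout FoB 62.9, 77 and 71.9, with wild-type libraries at 17.5, 18.9 and 17.7 in MZB and 78.6, 69.1 and 60.4 in FoB. Every FoB library was above 60 rppm and every MZB library below 23, and the difference was 1.67 ± 0.11 (log2 ± SE, adjusted p = 3.11e-14). In Gpatch2 (chromosome 1, 187369041 to 187369416) knockout MZB read 2.33, 1.58 and 2.36 rppm and knockout FoB 27.9, 26.2 and 28.2. That difference, 3.44 ± 0.23 (adjusted p = 3.11e-14), was the largest of the 389, and the wild-type means were close to it at 2.1 ± 1.01 rppm in MZB and 28.5 ± 2.77 rppm in FoB.

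Other strong differences lay far from genes. A region 55378 bp from Ifng, the interferon gamma gene, read 7.93, 5.05 and 7.39 rppm in knockout MZB and 35.4, 38.1 and 32.5 in knockout FoB (2.32 ± 0.17, adjusted p = 2.34e-13). Near Cetn3, a centrin gene 275181 bp away, the knockout means were 11.8 ± 2.16 and 44.8 ± 2.42 rppm, and 246226 bp from Angpt1, which encodes a ligand of vascular receptors, they were 11.5 ± 2.14 and 38.8 ± 4.19 rppm. At both, the FoB and MZB libraries did not overlap.

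Regions inside Tnfrsf8, Vsir and Spice1 were also among those with the smallest p-values. Tnfrsf8, the gene of a receptor of the TNF family found on activated lymphocytes, held a region (chromosome 4, 145305696 to 145306311) at 4.2, 2.21 and 2.96 rppm in knockout MZB, while knockout FoB read 19.7, 17.1 and 23.6 (2.54 ± 0.21, adjusted p = 1.08e-11). Vsir, which encodes an inhibitory checkpoint receptor, held one (chromosome 10, 60351792 to 60352256) at 7.23, 7.89 and 5.62 against 23.8, 27 and 25.4 rppm. Wild-type values of the Vsir region were similar, at 6.36 ± 0.764 rppm in MZB and 27.8 ± 0.903 rppm in FoB. The region inside Spice1, a centriole gene, read 46.1 ± 0.226 rppm in knockout FoB and 16 ± 1.65 rppm in knockout MZB.

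The most open member of all lay 5240 bp from Gpatch2 (chromosome 1, 187376885 to 187377719), with wild-type FoB libraries at 72.3, 88.7 and 81.7 rppm and knockout FoB libraries at 74.3, 82.6 and 76.2. Wild-type and knockout MZB libraries read 22.1 to 23.9 and 28.1 to 29.4 rppm there, so even the most open region kept signal in MZB. Regions near Prl2c3, a prolactin family gene (73.2 ± 6.24 rppm in wild-type FoB), and Mef2c (63.5 ± 9.02 rppm) followed it together with those in Rassf3 and Wwox.

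Transcription factor genes of the B lineage had 10 of the 389 regions among their 839 tested ones, a share of 1.19% against 0.433% of all tested regions. The tested regions include those under 5 rppm in wild-type FoB, which could not be members, and these shares were not tested against each other. The 10 regions were spread over 3 genes. They belonged to Ebf1 with 7, Bcl11a with 2 and Ets1 with 1. All 10 were called higher in knockout FoB than in knockout MZB, as were 90.7% of the 389. Over the 839 regions of the list, 107 were higher and 151 lower, with a median difference of -0.06 against -0.14 for all tested regions. Ebf1 sets and keeps B cell identity, and its strongest region lay 108504 bp away (chromosome 11, 45116600 to 45117294). That region read 13.5, 14.2 and 14.8 rppm in knockout MZB, 40.4, 40 and 36.3 in knockout FoB and 49.5, 49.5 and 50.4 in wild-type FoB. Knockout FoB libraries were all below the wild-type ones, the direction that the choice favours. That difference of -0.36 ± 0.12 did not pass the test (adjusted p = 0.246). Knockout FoB libraries were all above MZB (1.42 ± 0.12 against knockout MZB, adjusted p = 1.21e-11).

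Ets1, a factor that restrains plasma cell formation, had its region 170511 bp away, at 5.03 ± 0.842 rppm in knockout MZB and 14.5 ± 2.07 rppm in knockout FoB. Bcl11a, which is required for early B cells, had one 121692 bp away at 3.25 ± 0.219 and 6.51 ± 0.48 rppm (adjusted p = 0.00422). Mef2c, a factor of B cell proliferation taken from the germinal centre list, had 2 regions, of which the stronger lay 588139 bp away. It read 23.1, 26.5 and 26.3 rppm in knockout MZB, while knockout FoB read 65.8, 57.3 and 54.1, without overlap (1.21 ± 0.12, adjusted p = 6.79e-10).

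Among Krueppel-like, forkhead and Tcf factors, Lef1 and Klf13 had 1 region each of the 405 tested. This share of 0.494% was close to the 0.433% of all tested regions. Over the whole list, 35 regions were higher and 63 lower in knockout FoB. The Lef1 region lay inside the gene at 2.48 ± 0.238 rppm in knockout MZB and 6.99 ± 1.73 rppm in knockout FoB. For Klf13, at 26261 bp, the values were 3.17 ± 0.374 and 7.2 ± 1.92 rppm. Both differences passed the test, with adjusted p = 0.000145 and 0.00273.

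Genes of the follicular programme held 2 of the 389 regions among 143 tested (1.4%). One lay 10732 bp from Icosl, the ligand through which B cells engage the costimulatory receptor ICOS on T cells, and the other 8458 bp from Btla, an inhibitory receptor of lymphocytes. The Icosl region read 8.63, 11.4 and 10.6 rppm in knockout MZB and 19.9, 20.6 and 23.4 in knockout FoB (adjusted p = 1.78e-05), and the Btla region 3.5, 2.84 and 2.96 against 8.69, 10.5 and 7.37 (adjusted p = 3.38e-05). Neither overlapped between the cell types. Over the whole list 39 regions were higher and 8 lower in knockout FoB, with a median difference of 0.18. Genes of the marginal zone programme held 0 of the 389 regions among 225 tested, where 0.433% of all tested regions were members. Of the 225, 15 were higher and 100 lower, with a median difference of -0.49 against -0.14 over all tested regions, of which 9.47% were higher and 23.2% lower.

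Notch pathway genes held 2 of the 389 regions among 172 tested. Lfng, whose product adds sugars to Notch receptors, had one 9807 bp away at 10, 12.6 and 10.9 rppm in knockout MZB and 30.8, 29.4 and 33 in knockout FoB. Maml2, a Notch co-activator gene, had one inside it at 5.62 ± 0.58 and 14.4 ± 3.02 rppm. Both passed the test (adjusted p = 1.35e-10 and 3.61e-06), whereas 19 regions of the whole list were higher and 56 were lower. Of the canonical NF-kB list, 26 of 191 regions were higher and 34 lower in knockout FoB. Only 1 of the 191 was a member (0.524%, against 0.433% of all tested regions). It lay 5884 bp from the kinase gene Ikbkb, with knockout libraries at 2.33, 3.15 and 2.96 rppm (MZB) and 5.79, 4.33 and 5.85 rppm (FoB). Its difference of 0.81 ± 0.28 (adjusted p = 0.0248) no longer passed when knockout FoB library 1 or 3 or knockout MZB library 1 was left out (adjusted p = 0.0831, 0.0833 and 0.0884).

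Immature and transitional B cell genes had 4 of the 389 regions among 124 tested (3.23%), at Sox4, Lef1, Rag2 and Cd93, and those at Sox4 and Lef1 were higher in knockout FoB. Sox4 is needed for early B cell development, and its region, 313315 bp away, read 1.87, 1.89 and 2.66 rppm in knockout MZB and 10.6, 7.62 and 8.89 in knockout FoB. FoB stood clear of MZB there (1.85 ± 0.25, adjusted p = 3.55e-07). Cells with the product of Cd93, carried by B cells that have newly left the bone marrow, were gated out. Its region, 4462 bp away, read 1.87, 3.47 and 5.62 rppm in knockout MZB and 6.62, 6.8 and 4.58 in knockout FoB, which overlap, and did not pass (0.73 ± 0.31, adjusted p = 0.0627). It passed with all libraries in edgeR with TMM (adjusted p = 0.0108) and without TMM (0.0407) and in limma after quantile normalisation (0.00688). It also passed without knockout FoB library 3 (adjusted p = 0.0444), knockout MZB library 3 (0.0135) or wild-type MZB library 2 (0.0474).

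A region inside Adgre1, the gene of the macrophage marker F4/80 that the gates also excluded, read 2.1, 2.84 and 1.48 rppm in knockout MZB and 5.59, 4.94 and 3.3 in knockout FoB. Its adjusted p of 0.0321 rose to between 0.0595 and 0.14 without knockout FoB library 1 or 2 or knockout MZB library 1 or 3. Of the 47 tested regions of the myeloid list, only this 1 was called higher in knockout FoB and 16 were called lower. The median difference of that list was -0.52. No region of the lists for noncanonical NF-kB, B cell receptor signalling, migration and adhesion, AP-1, Egr and Nr4a, the plasma cell programme, MHC class II, LSD1 and partners, B-1, T, NK, dendritic, or erythroid and megakaryocyte cells was a member.

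Some follicular-open regions had another one nearby. Counting neighbours no more than 50 kb apart, 139 of the 389 (35.7%) fell into 51 runs, 18 of which held 3 or more. No such share of other regions is given here, so these numbers do not show that follicular-open regions gather more than others. The run with the most members held 9 regions in 38.0 kb, from inside Gpatch2 to 12850 bp outside it, and a further region lay 80471 bp from the gene. All 10 regions of Gpatch2 were called higher in knockout FoB than in knockout MZB, as were 90.7% of the 389. Within the run, wild-type FoB means went from 5.648 to 80.87 rppm and knockout FoB means from 5.228 to 77.71, while wild-type MZB means went from 0.7294 to 22.71. Of the 11 listed regions in that span, 9 were members and 0 were open in MZB by the exchanged rule.

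Esrrg, also on chromosome 1, which encodes an orphan nuclear receptor, had a run of 3 regions between 21134 and 53348 bp away. Their knockout MZB means were 0.8738 to 4.347 rppm and their knockout FoB means 5.824 to 17.41 rppm. Stpg2, a sperm-tail protein gene, held 6 regions over 70.8 kb, all inside the gene, with median levels of 5.12 rppm in knockout MZB and 13.07 in knockout FoB. Antxr2, the gene of an anthrax toxin receptor, had 6 over 95.9 kb. The median over these 6 was 3.407 rppm in wild-type and 2.379 in knockout MZB, and 13.28 and 9.341 rppm in FoB.

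Ebf1 had 7 regions between the gene itself and 315578 bp outside it, 4 of them in a run of 68.7 kb. Wild-type FoB means were 5.851 to 49.82 rppm and knockout MZB means 1.071 to 14.17 rppm over the 7. The farthest, at 315578 bp, stood at 2.7 rppm in knockout MZB and 13.65 in knockout FoB (log2 difference 2.21). Hcrtr2, an orexin receptor gene, had 5, of which 4 lay in a run of 43.9 kb. All 5 were called higher in knockout FoB, as were 90.7% of the 389. Its strongest region, 41170 bp away, read 10.5, 13.2 and 10.1 rppm in knockout MZB against 34.4, 31.7 and 28.5 in knockout FoB.

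**Figure D3:**
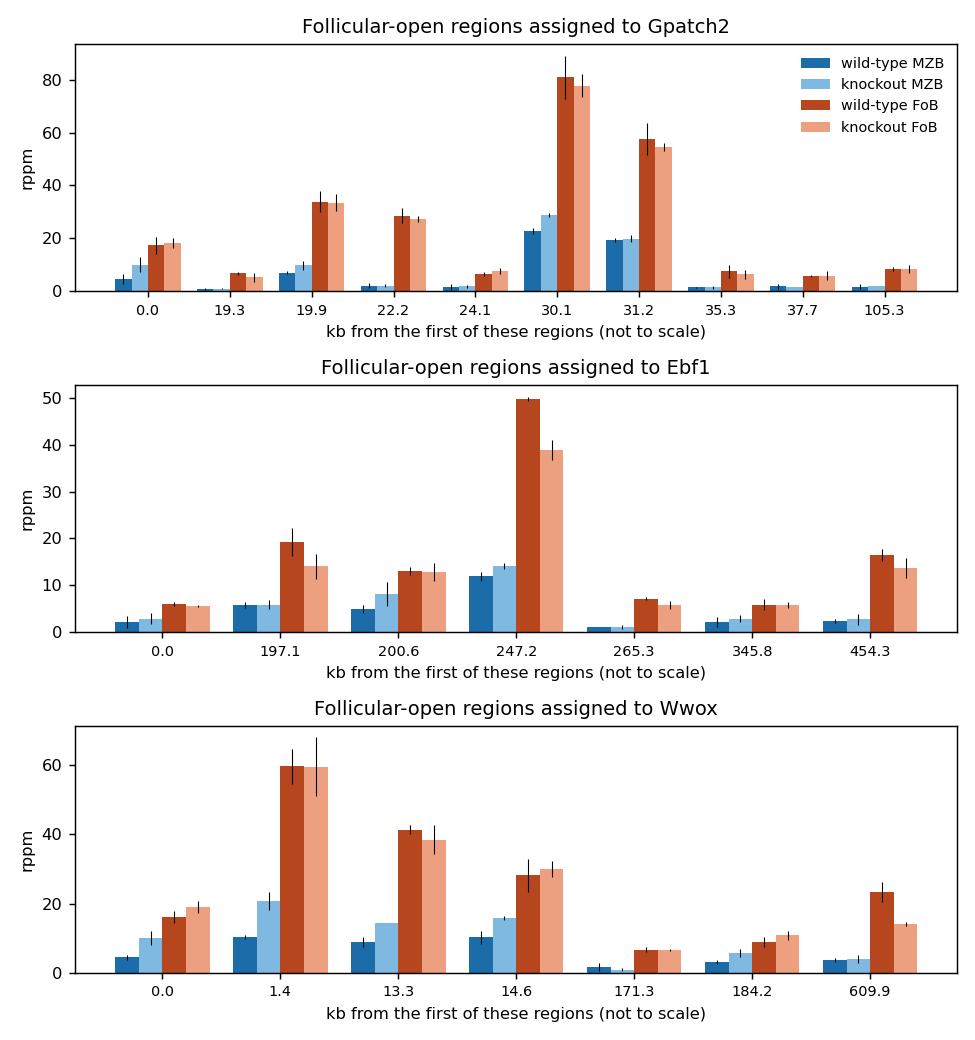
Mean level in rppm of each follicular-open region assigned to Gpatch2, Ebf1 and Wwox in the 4 groups, with the SD over 3 libraries as error bars. Regions stand in chromosomal order with their distance from the first one in kb, spaced evenly and not to scale. At Gpatch2 and Ebf1 knockout MZB stays near wild-type MZB in most regions, and in the first 4 Wwox regions it is higher.

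Wwox, a large oxidoreductase gene that spans a fragile site, had 7 regions, 4 of them within 15.2 kb. In those 4 the knockout MZB level exceeded the wild-type one, the direction that a choice by low wild-type MZB values favours. The strongest (chromosome 8, 114803086 to 114803654) read 9.99, 10.9 and 9.95 rppm in wild-type MZB, 20.1, 23.7 and 18.6 in knockout MZB, 65.4, 57.5 and 56.1 in FoB labelled wild-type and 65.8, 63 and 49.8 in knockout FoB. Knockout MZB thus lay between the others without overlap, and FoB did not differ by label beyond its spread (-0.01 ± 0.12, adjusted p = 0.99). Group means of the other 3 regions of the run went from 4.457 to 10.19 rppm in wild-type MZB and from 9.976 to 15.79 in knockout MZB. At the 3 Wwox regions outside the run, no difference between the MZB labels passed the test.

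Immunoglobulin loci held 12 of the 389 regions. The heavy chain locus on chromosome 12 had 5 (1.29%, against 0.057% of the regions open in FoB), between 643149 and 789278 bp from Zfp386, the nearest protein-coding gene. The kappa light chain locus on chromosome 6 had 7 (1.8% against 0.231%), and the lambda locus had 0. All 12 were called higher in knockout FoB than in knockout MZB, as were 90.7% of the 389, so this sets them little apart. Heavy chain members ranged from 0.9856 to 6.158 rppm in knockout MZB and from 4.262 to 17.97 in knockout FoB, and kappa members from 1.782 to 5.987 and from 5.681 to 22.53. The strongest of the kappa regions (chromosome 6, 69726197 to 69726777) read 6.53, 3.15 and 8.28 rppm in knockout MZB and 30.4, 17.1 and 20.1 in knockout FoB. FoB was above MZB in every library, though the knockout FoB libraries spread widely. Reads in such repeated gene segments can be shared between near-identical copies, and how the authors treated them is not stated in these sources.

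The level in knockout MZB is given next, first as a description. Knockout MZB means were above wild-type MZB means at 312 regions and below at 77, and they lay between wild-type MZB and wild-type FoB at 310. At 38 regions the knockout mean was at least 2 times the wild-type one. The median difference was 0.34 on the log2 scale, against -0.02 over all tested regions. In limma, 45 regions (11.6%) were higher and 1 (0.257%) lower in knockout MZB, where 0.502% and 0.275% of all tested regions were called. All 3 knockout libraries lay above all 3 wild-type ones at 114 regions (29.3%, against 8.13%) and below at 9 (2.31%, against 9.55%). The members were chosen because these wild-type MZB libraries were low, which by itself favours a higher value in any other MZB library, so nothing is read from these counts. The number of calls fell from 46 to 27 without knockout MZB library 2, to 30 without wild-type MZB library 2 and to 27 without wild-type MZB library 3. Of the 45 regions called higher, 14 were called in all 12 fits that left out 1 library. Both edgeR with TMM scaling and DESeq2 also called 8 of the 45.

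To compare libraries that had played no part in the choice, the rule was applied again with 1 wild-type MZB library left out, and that library was set beside the knockout ones. Without library 1 the rule took 442 regions, and their median was 3.51 rppm in the library left out and 4.2, 4.42 and 4.43 in the knockout libraries. The 439 regions taken without library 2 had medians of 3.72 rppm in that library and 4.43, 4.42 and 4.43 in the knockout ones. For library 3, with 418 regions, the values were 3.58 and 4.2, 4.1 and 4.29 rppm. In each case the library left out lay above the wild-type libraries used in the choice (2.8 to 3.24 rppm) and below all 3 knockout libraries. Of the 389 members, 364, 359 and 341 recurred in the regions taken without libraries 1, 2 and 3. Each library left out also helped to choose the other sets, so the cases are not independent of one another. All 3 knockout libraries exceeded the one left out at 44.3%, 43.5% and 47.4% of the regions taken, and at 24.8%, 25.2% and 27.5% of all tested regions.

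**Figure D4:**
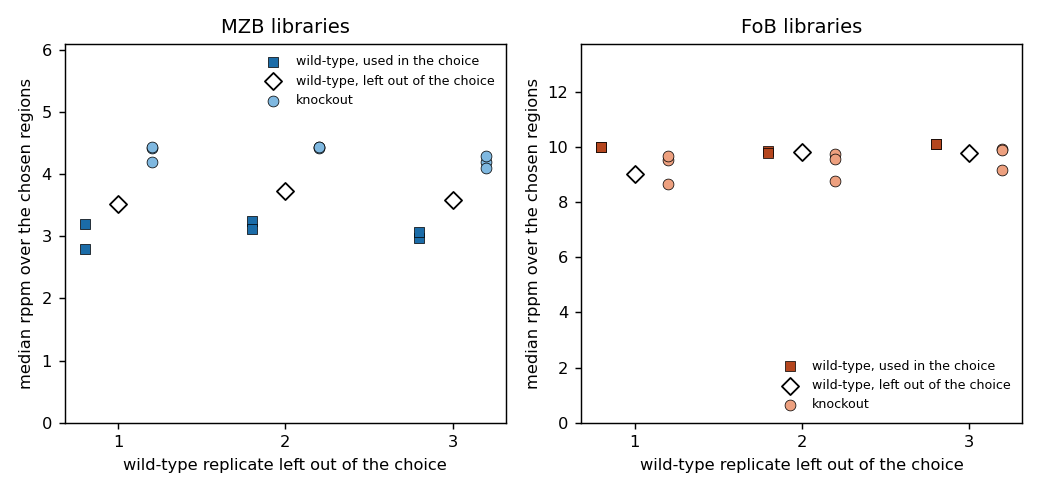
Median rppm over the regions that the rule takes when 1 wild-type library is left out, shown for the MZB (left) and the FoB libraries (right). Squares are wild-type libraries used in the choice, open diamonds the library left out and circles knockout libraries. In MZB the library left out (3.51 to 3.72) lies below every knockout library (4.1 to 4.43), and in FoB it lies among or above them.

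The regions with the smallest p-values for the MZB labels differed in kind. Low values in these wild-type MZB libraries helped to choose the regions, which favours higher knockout values. The p-values between the MZB labels are therefore a description only. Near Serp2, an endoplasmic reticulum stress protein gene 22621 bp away, wild-type MZB read 4.05, 3.46 and 2.18 rppm, knockout MZB 7.93, 12.9 and 10.1, wild-type FoB 35.6, 42.3 and 41.1 and knockout FoB 44.7, 52.9 and 45.2. Knockout MZB was above wild-type MZB and far below FoB (1.54 ± 0.17, adjusted p = 6.21e-07). The same order held 76755 bp from Plk2, a polo-like kinase gene, with 2.97, 3.46 and 3.11 rppm in wild-type MZB, 8.16, 8.52 and 8.87 in knockout MZB and 14.8, 22.2 and 18.4 in wild-type FoB. A region inside Cdkal1, which encodes a tRNA-modifying enzyme, stood at 6.81 ± 0.542, 13.6 ± 1.67 and 28.5 ± 0.843 rppm in those groups, and one 20207 bp from the vomeronasal receptor gene Vmn2r82 at 11 ± 1.83, 19.2 ± 1.82 and 28.3 ± 4.02 rppm.

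At 3 regions the difference between the labels passed the test in both cell types, upwards in knockout. In MZB the choice of the regions favours that direction, and in FoB it favours the other. The Steap3 region, 26845 bp from this ferrireductase gene (chromosome 1, 120297926 to 120298358), read 0.54, 1.33 and 0.933 rppm in wild-type MZB and 22.4, 21.1 and 21.9 in knockout MZB. In FoB it read 0.548, 15.4 and 0.477 with the wild-type label and 24.6, 24.3 and 27.7 with the knockout label. Wild-type FoB library 2, the deepest library, stood with the knockout libraries rather than with its own group, and without it the region would not be a member. The difference in FoB was 3.36 ± 0.49 (adjusted p = 9.5e-05) with that library, 4.68 without it, and 1.61 in edgeR with TMM scaling, which fits a ratio of mean reads. Inside the peptide transporter gene Slc15a2 (chromosome 16, 36770118 to 36770626) the libraries read 2.97, 1.59 and 4.98 in wild-type MZB, 17.5, 13.2 and 13.6 in knockout MZB, 8.76, 10.1 and 5.73 in FoB labelled wild-type and 21.5, 15 and 20.1 in knockout FoB. Knockout stood above wild-type in each cell type, and the FoB difference (1.17 ± 0.24, adjusted p = 0.00842) did not pass without knockout FoB library 1 or 3 or wild-type FoB library 3 (adjusted p = 0.0855, 0.056 and 0.104).

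The third was 144994 bp from Tshz1, a zinc finger factor gene, at 3.18 ± 0.515 and 17.6 ± 4.61 rppm in wild-type and knockout MZB and 17.8 ± 4.08 and 35.8 ± 3.8 rppm in FoB. The wild-type FoB libraries read 15.06, 22.46 and 15.76 rppm and the knockout ones 40.15, 33.16 and 34.06. Library 2 was thus again the highest of the wild-type FoB libraries, but here it stayed below every knockout FoB library. The Steap3 and Tshz1 regions lie in 2 of 4 chromosome stretches that were picked with the calls known. Between the genotype labels, 9.61% of regions were called in the one on chromosome 1 and 8.71% in the one on chromosome 18. The stretches on chromosomes 15 and 4 had 12.4% and 2.14%, against 1.16% of all tested regions. The 1 member on the chromosome 15 stretch, in Ncald, was called in MZB, and 0 of the 4 members on the chromosome 4 stretch were called. Of the 389 regions, 7 lay in the 4 stretches, and 43 of the 46 regions called in MZB lay outside them. What sets these stretches apart was not tested.

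Antxr2 held the region called lower in knockout MZB (chromosome 5, 97935225 to 97935903). Wild-type MZB read 3.78, 5.58 and 3.73 rppm and knockout MZB 2.57, 0.946 and 2.07, so the groups did not overlap, with a difference of -1.09 ± 0.25 (adjusted p = 0.0242). It did not pass without knockout MZB library 2 (-0.77, adjusted p = 0.181) or wild-type MZB library 2 (-0.92, adjusted p = 0.148), or in edgeR and DESeq2 (adjusted p = 0.151 and 0.423). FoB was higher than MZB in all libraries of both labels there.

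**Figure D5:**
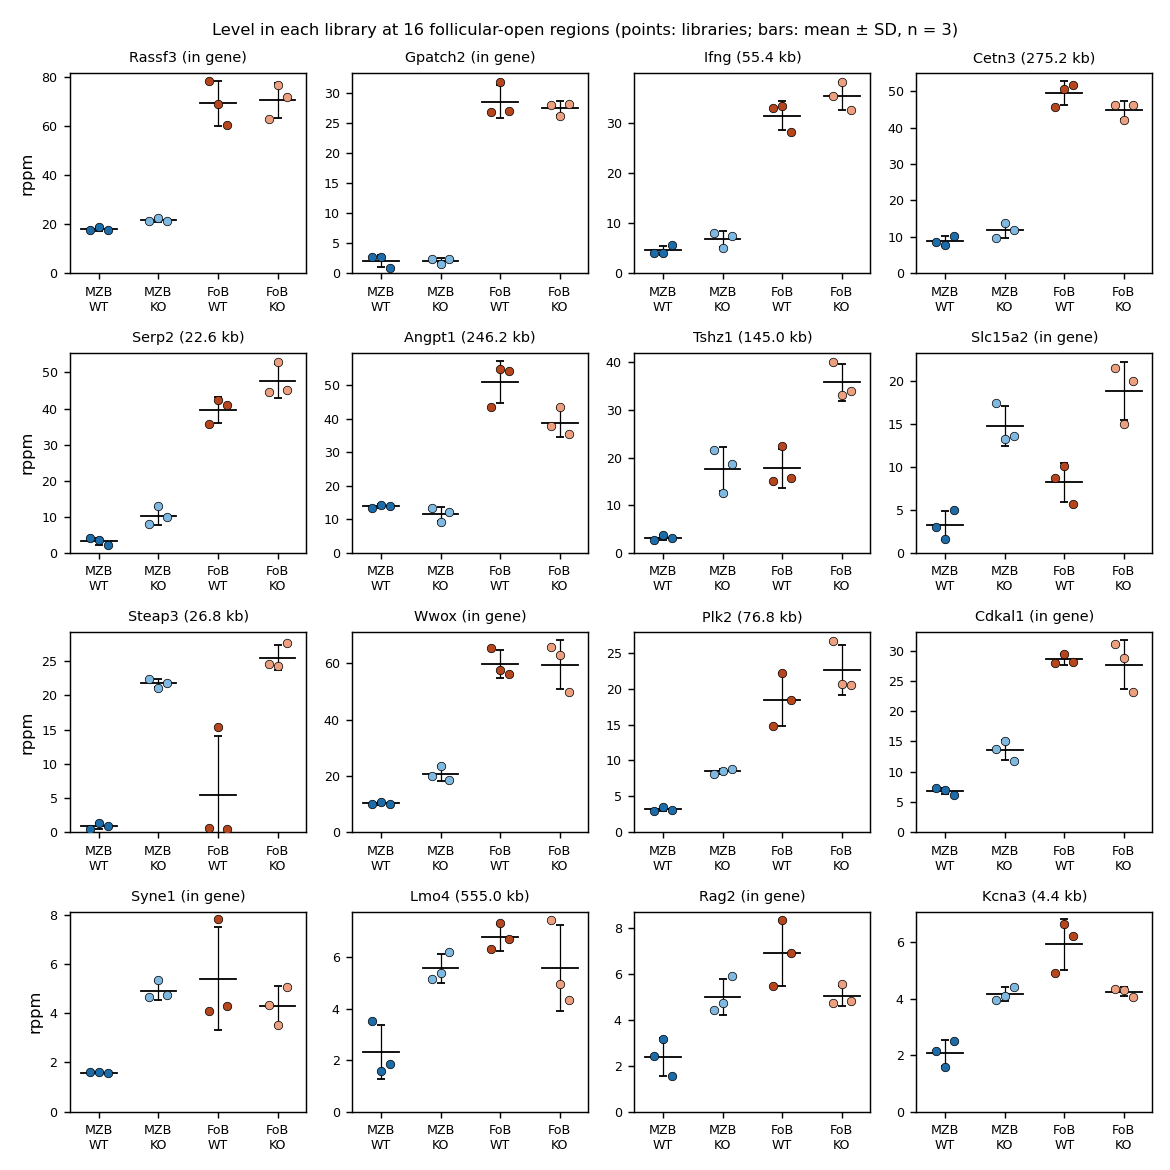
Level in rppm in each library at 16 follicular-open regions, titled by the nearest gene and its distance. Points are libraries and bars the mean ± SD of 3; at Steap3 the lower SD bar of wild-type FoB is drawn to 0. Knockout MZB lies near wild-type MZB at Gpatch2, between the cell types at Wwox and Plk2, and level with FoB at Syne1 and Lmo4.

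Markers of other cells were read beside the knockout MZB values. Over the regions of Fcer2a, Klf2 and Ccr7, knockout MZB libraries summed to 288.1 to 317 rppm, above the wild-type range of 276.8 to 284.7. With Cr2 added the ranges overlapped, at 565.7 to 585.5 and 569.7 to 580.0 rppm. Over the 5 marginal zone markers they also overlapped, at 999.2 to 1081 against 1012 to 1081. Over the 14 genes of the marginal zone programme, knockout MZB libraries summed to 2884 to 3021 rppm, below the wild-type 3041 to 3114, and over those of the follicular programme to 1783 to 1856 against 1771 to 1794, which overlap. Fcer2a, the gene behind the CD23 gate, had a summed mean of 49.41 rppm in wild-type and 52.41 in knockout MZB, against 97.2 in wild-type FoB. Cd9 had 275.2 and 275.5, against 94.07. Of the 127 tested regions of the 9 marker genes, Cr2 included, limma called 0 between the MZB labels, and 7 were higher and 3 lower in knockout at an unadjusted p under 0.05.

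The immature and transitional list summed to 850.2 to 901.8 rppm in wild-type MZB, 1037 to 1041 in knockout MZB and 1114 to 1197 in wild-type FoB. Of its 124 regions, 8 were called higher and 0 lower in knockout MZB, against 0.502% and 0.275% of all tested regions. Knockout MZB also stood above wild-type MZB for myeloid genes (378.8 to 424 against 349.2 to 354.9), NK cell genes (370 to 407 against 356.7 to 360.8), dendritic cell genes (527.6 to 549.7 against 493.2 to 527.1), erythroid and megakaryocyte genes (98.12 to 100.3 against 86.93 to 94.54), and for B-1 cell genes (1061 to 1102 against 1048 to 1052). T cell genes overlapped at 242.9 to 251.1 against 242.9 to 250.7. In knockout MZB, 3 of 47 myeloid, 2 of 94 B-1 and 1 of 62 dendritic cell regions were called higher, and 1 B-1 region lower. The NK, T, and erythroid and megakaryocyte lists had 0 calls in either direction. The defining genes Elane, Mpo, Gzma, Gata1, Hba-a1, Bcl11b, Cd3g, Cd4, Cd8a and Trac had no listed region. The part of such cells in the knockout MZB level was not tested.

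Few of these regions were called between the FoB labels. Knockout FoB means were below wild-type FoB means at 252 regions and above at 137, with a median difference of -0.08 against -0.02 over all tested regions. Limma called 3 regions (0.771%) higher and 1 (0.257%) lower, where 0.32% and 0.219% of all tested regions were called. The 4 calls became 8 with the compared groups alone, 14 in edgeR with TMM and 15 without TMM, and 2 to 5 without 1 library, with 2 when knockout FoB library 1 or 3 or wild-type FoB library 3 was absent. Knockout libraries lay wholly below wild-type ones at 64 regions (16.5%, against 7.51%) and wholly above at 19 (4.88%, against 7.18%). The choice of regions that were high in wild-type FoB favours lower values elsewhere, so nothing is read from these counts either. With 1 wild-type FoB library left out of the choice, its median was 9.03, 9.83 and 9.79 rppm for libraries 1 to 3, and the knockout medians over the same regions were 8.64 to 9.68, 8.77 to 9.73 and 9.15 to 9.93 rppm. The library left out thus lay within the knockout range for libraries 1 and 3 and above it for library 2.

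The region called lower in knockout FoB lay 35282 bp from Abhd17b, a gene of a depalmitoylating enzyme (chromosome 19, 21720920 to 21721476). Wild-type FoB read 21.4, 28.7 and 26.7 rppm, knockout FoB 12.8, 16.7 and 11.2, and MZB of both labels 2.66 to 6.22. The FoB labels did not overlap, but the difference of -0.90 ± 0.22 (adjusted p = 0.0365) did not pass when knockout FoB library 1 or 3 or wild-type FoB library 2 or 3 was left out (adjusted p = 0.152, 0.191, 0.163 and 0.185). High values in the wild-type FoB libraries helped to choose the region, which favours lower knockout values, so this difference is a description only.

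At 36 of the 389 regions the difference between knockout FoB and knockout MZB did not pass the test, and at 34 of them it was still above 0. They were among the less open ones, with a median wild-type FoB mean of 6.411 rppm, against 10.98 for the 353 called. Their knockout MZB median was 4.14 rppm and their knockout FoB median 5.299. A missed threshold does not show that the cell types were alike.

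The smallest differences were at Syne1, Lmo4, Rag2, Kcna3 and Wdr11. Inside Syne1, which encodes a linker of nucleus and cytoskeleton, a region (chromosome 10, 5499932 to 5500412) read 1.62, 1.59 and 1.55 rppm in wild-type MZB, 4.67, 5.36 and 4.73 in knockout MZB, 4.11, 7.81 and 4.3 in FoB labelled wild-type and 4.35, 3.5 and 5.08 in knockout FoB. Knockout MZB overlapped FoB of both labels, and wild-type MZB, whose low values helped to choose the region, stood alone. The region in Rag2, a gene of the V(D)J recombinase, contains the start of Iftap (chromosome 2, 101628654 to 101629193). It read 2.43, 3.19 and 1.55 rppm in wild-type MZB, 4.43, 4.73 and 5.91 in knockout MZB, 5.48, 8.38 and 6.92 in FoB labelled wild-type and 4.76, 5.56 and 4.83 in knockout FoB. Both knockout groups met in the middle, with a difference of 0.01 ± 0.26 (adjusted p = 0.977).

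Kcna3, a potassium channel gene of lymphocytes, had its region 4426 bp away at 4.17 ± 0.241 rppm in knockout MZB and 4.25 ± 0.156 in knockout FoB, between wild-type means of 2.08 ± 0.452 and 5.93 ± 0.894. For Lmo4, a LIM domain factor gene 554960 bp away, both knockout means were 5.57 rppm, and for Wdr11, at 135951 bp, they were 7.07 ± 0.7 and 7.62 ± 2.19 rppm. The sign of the knockout difference at these 5 regions changed under at least 1 other processing setting.

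The same rule was also applied to the knockout libraries. It took 213 regions there, of which 156 were also taken in wild-type, which is 40.1% of the wild-type set and 73.2% of the knockout set. The exchanged rule took 5115 regions in wild-type and 4766 in knockout, with 3471 in common (67.9% and 72.8%). The 213 regions had median levels of 3.181 rppm in knockout MZB, 3.238 in wild-type MZB, 9.849 in knockout FoB and 10.15 in wild-type FoB. That choice in turn favours low values in knockout MZB, and the medians of both MZB labels were nearly the same. Whether the loss or gain of regions by the rule differs between the labels was not tested.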

How the data were processed

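ATAC-seq libraries of sorted splenic B cells were deposited as 1 table of 94161 regions in RPM (there named rppm), made by the authors with Bowtie 1.1.1, MACS2 and mm10, as the submitters' processing notes list them. Every value gave a whole read within 0.01. Members and gene lists were chosen with earlier results of these data known. Groups were compared with limma 3.58.1 in R 4.3.3 on log2(rppm + 0.5), with a trend, 4 group coefficients and all 12 libraries, for the 89782 regions at 1 rppm or more in at least 3 libraries. Two-sided p-values were adjusted over these regions by Benjamini-Hochberg, with a threshold of 0.05. Alternatives were other pseudocounts, filters and scalings, each library left out, a replicate block, and edgeR 4.0.16 and DESeq2 1.42.0 on recovered reads. The fit was tested on simulated data. Each region took the nearest of 20661 RefSeq protein-coding genes (GRCm38.p6). The rule for named regions took those leading each comparison by p-value, those with the smallest knockout difference or highest level, the members of the lists, and genes with most members. Promoter, Esrrg and immunoglobulin regions were chosen after their values were seen. No test was made between the wild-type groups, which chose the members. One region that the rule names and one follicular marker gene are not reported here.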

Additional observations from a re-analysis of the deposited data

How the results depend on the processing

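Without 1 library, 326 to 355 of the 389 regions were called higher in knockout FoB than in knockout MZB, and 300 of the 353 calls were made in all 12 such fits. With a replicate block it gave 355, and 5 and 47 regions were then called between the labels in FoB and MZB, against 4 and 46. Same-numbered libraries showed no shared deviation over the tested regions (r from -0.073 to 0.068 between the cell types of 1 label). Such values cannot exclude that the numbers pair libraries, and the block changed no count by over 1.5 times. Calls between the FoB labels numbered 8 with the compared groups alone, 14 in edgeR with TMM, 15 without TMM, and 2 to 5 without 1 library, with 2 when knockout FoB library 1 or 3 or wild-type FoB library 3 was absent. Between the MZB labels they numbered 27, 24 and 23 under those settings, 8 in DESeq2 and 27 to 48 without 1 library. The rule took 910, 237 and 101 regions at a fold of 2, 3 and 4, 585 and 196 at a level of 3 and 10 rppm, 663 after TMM scaling, and 402 to 449 without 1 library. In the knockout libraries it took 368 after TMM scaling, a setting chosen after seeing the data. The cause of these shifts was not tested, other than the settings themselves. Apart from the settings, 5.91% of the 389 regions lay within 1000 bp of either end of a gene, against 30.7% of the regions open in FoB. Within 3000 bp the shares were 11.1% and 40.2%.

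At the regions with the smallest knockout differences the sign changed. Syne1 went from -0.18 to 0.23 with quantile normalisation. Lmo4 went from -0.03 to 0.33 with quantile normalisation, 0.19 in edgeR with TMM, 0.03 without TMM and 0.17 in DESeq2. Without 1 library, values ran from -0.24 to 0.12 for Lmo4, -0.06 to 0.12 for Rag2, -0.01 to 0.07 for Kcna3 and -0.09 to 0.31 for Wdr11. Depth limits regions near the floor of 3 reads.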
